A study of Mus musculus with 22 samples.

Results

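The Slc22 and Slco carriers were examined in kidney RNA of diabetic db/db and control db/m mice. The genes were taken by name, as the rows of the table of ac4C peaks whose gene name starts with Slc22a or Slco. This gave 12 genes with 21 peaks out of 4909 gene names with 9857 peaks, namely 9 Slc22a genes with 16 peaks and 3 Slco genes with 5 peaks. Within these families Slc22a7, Slc22a26 and Slco1a1 were singled out because their reads fell the most in db/db mice, after pull-down as well as in RNA-seq. The fall of these 3 genes is therefore how they were chosen, and it is described below with no test. The other 9 genes were taken by name alone and were tested.

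The db/db mice carry 2 mutated copies of the leptin receptor gene and grow obese and diabetic. The db/m controls carry 1 mutated copy and are not diabetic. Per the study's methods the mice of this model were male and were 8 weeks old on arrival, and no treatment is given in the labels. The labels give the tissue as kidney for 6 db/db and 5 db/m mice, and each mouse had an ac4C immunoprecipitation (IP) library and an RNA-seq library, 22 libraries in all. In the IP library, fragments of mRNA that bind an antibody to N4-acetylcytidine (ac4C), an acetylated RNA base, are recovered and sequenced. The table's columns name the RNA-seq library input, and it gives the abundance of the transcript in the same region.

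Slc22 and Slco proteins are membrane carriers with broad and overlapping substrates. In the proximal tubule, the segment behind the glomerulus, organic anion transporters of the Slc22 family take up drugs, toxins, urate and metabolites from blood or from the tubular fluid, and organic cation transporters of the same family do so for cationic compounds. Slco genes encode organic anion transporting polypeptides, which carry bile salts, steroid conjugates, thyroid hormones and prostaglandins. In mice, several of these genes are expressed at different levels in males and females, and Slco1a1 is known for its high, androgen-dependent expression in male kidney.

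RefSeq (GRCm38.p6) lists 39 protein-coding genes of these names in the mouse, and 12 have a row in the peak table. The other 27, among them Slc22a8 and Slco4c1, were not analysed here. A level is given below as CPM, the reads of a gene's peak scaled to a fixed number of reads in all peaks of that library, after TMM normalization. Where a gene has several peaks, the peak with the most RNA-seq reads stands for it. A gene was called higher or lower when edgeR's quasi-likelihood test gave a Benjamini-Hochberg adjusted p under 0.05 over all 9857 peaks and the absolute log2 fold change was over 1.

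The IP libraries held 7577171 to 9862426 reads in peaks in db/db mice and 9125099 to 10293757 in db/m mice. The RNA-seq libraries held 3160992 to 3352535 and 3151035 to 3265239 reads. A count of 0 is compatible with as many as 3 reads. In IP these make 0.305 to 0.363 CPM and in RNA-seq 0.857 to 0.981 CPM, for counting error only.

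Libraries differed in transcripts that are not typical of kidney tubules. Lung markers with a peak (6 of 7 listed) summed to 11.4 to 48.0 CPM in the IP libraries of db/db animals 1 to 4 and to at most 1.06 CPM in every other IP library. Their most abundant gene was Sftpc (surfactant protein C), at 10.2 ± 9.79 CPM (SD, n = 6) in db/db and 0.0212 ± 0.0474 (SD, n = 5) in db/m IP libraries. In RNA-seq libraries the same markers summed to at most 1.43 CPM. The lung reads are thus in 4 IP libraries and not in the RNA-seq libraries of the same mice. Most IP changes of the carriers are therefore also given with animals 5 and 6 as the db/db group, an alternative added after seeing the data. That group has fewer mice and holds animal 6, the highest db/db mouse in several carriers. Its values thus differ from the main fit in more than the lung reads, and the parts were not separated. The adipocyte markers Adipoq and Plin1 had 21 and 35 IP reads over all 11 libraries, and Lpl, the other gene of that list with a peak, carried nearly all of its reads. Summed over the list, IP levels were 2700 to 3050 CPM in db/m animals 1, 2 and 4, 14 and 15.9 in db/m animals 5 and 3, 321 in db/db animal 6 and 4.08 to 9.91 in the other db/db mice. RNA-seq levels were lower but again highest in db/m animals 1, 2 and 4, at 46 to 70.2 CPM, against 13 and 16.7 in db/m animals 5 and 3 and 4 to 6.67 in db/db mice. Lpl was called lower in both, at -4.88 in IP (SE 1.38, adjusted p = 0.0404) and -3.03 in RNA-seq (SE 0.39, adjusted p = 2.96e-05). None of the 7 listed hepatocyte markers and none of the 5 listed injury markers has a peak, so neither was measured here.

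The promoters of 9 of the 12 genes are in the RefSeq table used here, and those of Slc22a26 and Slco1a1 are shown because these genes fell together in db/db mice. Each runs from 250 bases before to 50 bases after the start of the gene, on the gene's own strand. Slc22a26 lies on the minus strand (chr19:7802618-7802917, GRCm38.p6) and Slco1a1 also (chr6:141946913-141947212). Capitals mark AGAACA, a hexamer that glucocorticoid and related steroid receptors can bind, here read on the other strand as TGTTCT.

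Slc22a26: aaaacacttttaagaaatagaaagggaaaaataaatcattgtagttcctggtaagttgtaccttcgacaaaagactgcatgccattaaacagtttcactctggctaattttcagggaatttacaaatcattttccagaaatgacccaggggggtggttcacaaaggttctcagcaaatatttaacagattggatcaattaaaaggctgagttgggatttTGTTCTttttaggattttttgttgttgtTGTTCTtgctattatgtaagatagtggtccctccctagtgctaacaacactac

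Slco1a1: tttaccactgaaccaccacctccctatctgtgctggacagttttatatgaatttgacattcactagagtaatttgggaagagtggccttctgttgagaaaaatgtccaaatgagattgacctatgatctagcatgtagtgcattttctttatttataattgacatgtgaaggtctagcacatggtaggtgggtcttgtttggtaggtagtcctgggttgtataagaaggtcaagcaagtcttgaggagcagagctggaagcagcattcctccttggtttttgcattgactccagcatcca

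Slc22a26 held 2 such hexamers, the first bases of which lie at -31 and -3 from the start, and it was the 1 family promoter of 9 with a match on either strand. Among all 32851 RefSeq promoters of this length, 19.0% held the hexamer. The HNF4 motif CAAAGTCCA, that of a hepatocyte nuclear factor that acts in proximal tubule cells, was in 0 of the 9 family promoters and in 0.475% of all. The 2 motifs do not overlap each other, and the absence of a match says only that these letters are not in these windows.

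Slc22a7, the gene of organic anion transporter 2, had the lowest log2 fold change of all 9857 peaks, in IP and again in RNA-seq. Its peak lies on the minus strand at chr17:46432484-46433093 (GRCm38), 299 bases from the 3′ end of the gene. In db/m mice its RNA-seq level was 529, 333, 380, 399 and 373 CPM (animals 1 to 5). In db/db mice it was 1.81, 2.40, 4.57, 0.627, 3.16 and 8.49 CPM (animals 1 to 6), from 2 to 28 reads. The highest db/db mouse was thus far below the lowest db/m mouse, and the mean db/db level of 3.51 ± 2.78 CPM (SD, n = 6) was 0.871% of the db/m level of 403 ± 74.6 (SD, n = 5). In bulk tissue, fewer cells of a type and less RNA per cell cannot be told apart.

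IP reads of Slc22a7 showed the same. They gave 346, 189, 208, 293 and 244 CPM in db/m mice and 1.69, 1.08, 3.48, 0.918, 0.782 and 4.32 CPM in db/db mice, the latter from 7 to 42 reads. The log2 fold change was -6.95 (SE 0.37) in IP and -6.82 (SE 0.31) in RNA-seq. With animals 5 and 6 alone as the db/db group, whose IP libraries hold few lung reads, it was -6.62 in IP and -6.09 in RNA-seq.

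Slc22a26 encodes a rodent member of the organic anion branch of the family. Its peak, 150 bases on the minus strand at chr19:7781875-7782024, lies 1781 bases from the 3′ end of the gene. In db/m mice its RNA-seq level was 8.34, 10.1, 7.85, 7.98 and 9.19 CPM from 24 to 32 reads. Among db/db mice, 3 of 6 had no RNA-seq read, 2 had 1 read and animal 3 had 3 reads (0.857 CPM). The groups did not overlap, but the depth limits how low the db/db level can be placed, since 3 reads already make 0.857 to 0.981 CPM. IP reads numbered 68 to 99 in db/m mice (6.92 to 10.8 CPM) and 1, 0, 2, 1, 0 and 9 in db/db animals 1 to 6. The fitted log2 fold change was -5.21 (SE 0.66) in IP and -4.91 (SE 0.43) in RNA-seq, and the db/db mean was 2.48% and 2.80% of the db/m mean. The IP value was -6.44 without db/db animal 6, and the RNA-seq value was -5.75 without db/db animal 3, so single mice set much of its size. It was -4.27 in IP and -5.49 in RNA-seq with animals 5 and 6 alone as the db/db group.

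Slco1a1 (organic anion transporting polypeptide 1A1) sits in the apical membrane of proximal tubule cells in the mouse. Its peak of 121 bases lies on the minus strand at chr6:141907729-141907849, 448 bases from the 3′ end of the gene, and overlaps the RefSeq gene Gm30843. Because the counts do not separate strands, reads of the overlapping gene would be counted with those of Slco1a1. In db/m mice the RNA-seq level was 465, 647, 560, 520 and 713 CPM. In db/db mice it was 0.301, 4.50, 2.28, 8.78, 1.26 and 56.1 CPM (animals 1 to 6), with animal 6 highest. Relative to the mean, db/db mice differed more from each other than db/m mice did, with an SD of 178% of the mean against 17.1%.

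IP reads of Slco1a1 again put animal 6 highest among db/db mice, with 186 to 264 CPM in db/m mice and 0.604, 5.73, 3.72, 4.59, 0.223 and 16 CPM in db/db animals 1 to 6. The log2 fold change was -5.42 (SE 0.57) in IP and -5.57 (SE 0.66) in RNA-seq. Without db/db animal 6 it was -6.18 in IP and -7.40 in RNA-seq, so that 1 mouse sets much of the size of the estimate. With animals 5 and 6 alone as the db/db group it was -4.77 in IP and -4.32 in RNA-seq. The level of Slco1a1 in db/db mice was 2.31% (IP) and 2.10% (RNA-seq) of the db/m mean.

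**Figure D1:**
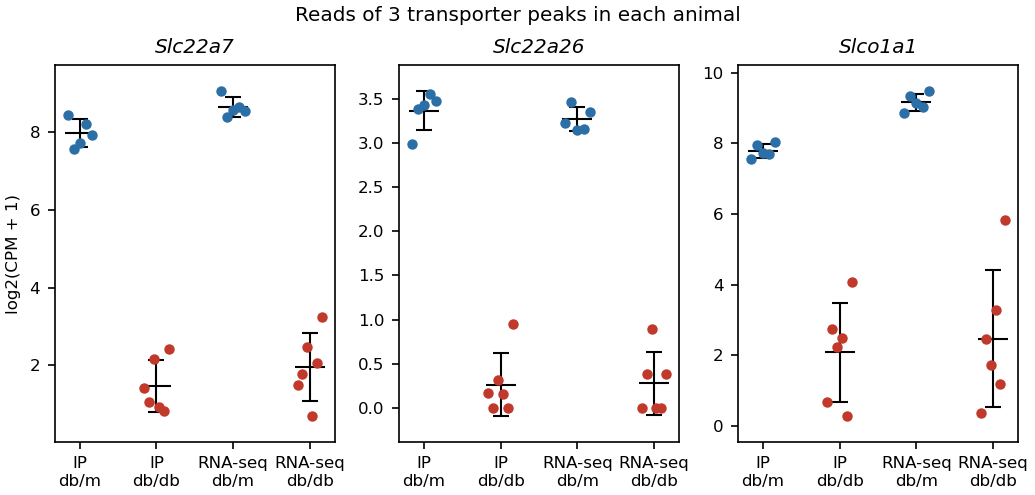
Level of the peak of Slc22a7, Slc22a26 and Slco1a1 as log2(CPM + 1), in the IP and the RNA-seq library of each db/m (blue, 5 mice) and db/db mouse (red, 6 mice); black bars are the mean ± SD of the plotted values. Every db/db mouse lies below every db/m mouse in all 3 genes, and the highest db/db points of Slco1a1 are animal 6 at 16 CPM (IP) and 56.1 CPM (RNA-seq).

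The rest of the family moved less. The 3 chosen genes had log2 fold changes of -4.91 or lower in RNA-seq, and the next gene, Slc22a2, was at -1.5. Among the 9 genes taken by name alone, 1 was called lower in IP and in RNA-seq, Slc22a2, where 1.81% (IP) and 2.12% (RNA-seq) of all 4909 genes were. The 3 chosen genes pass the same thresholds by the way they were chosen, and nothing is read from that. No family gene was called higher by edgeR or by DESeq2 (by edgeR, 1.61% of all genes in IP and 2.14% in RNA-seq were). At an unadjusted p under 0.05, edgeR had 1 gene higher in IP (Slc22a15, 40 reads) and 1 in RNA-seq (Slco2a1), and DESeq2 had 1 in IP (Slc22a15) and 0 in RNA-seq.

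Without the fold threshold, 4 of these 9 genes had an adjusted p under 0.05 and a lower value in db/db mice, Slc22a2, Slc22a12, Slc22a6 and Slco3a1, in IP and in RNA-seq alike, although the IP value of Slco3a1 passed only narrowly. This held for 3.2% of all genes in IP and for 5.56% in RNA-seq. All db/db mice lay below all db/m mice in 2 of the 9 genes in IP, against 2.99% of all genes, and in 3 of the 9 in RNA-seq, against 4.34%. The median log2 fold change of the 9 was -0.78 in IP and -0.20 in RNA-seq, and over all genes it was 0.01 and -0.01. The RNA-seq median is the value of Slc22a15, which has 2 RNA-seq reads in all. Over the 6 of the 9 genes with 100 or more RNA-seq reads, a limit set after seeing the values, the median was -0.71 in IP and -0.78 in RNA-seq.

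**Figure D2:**
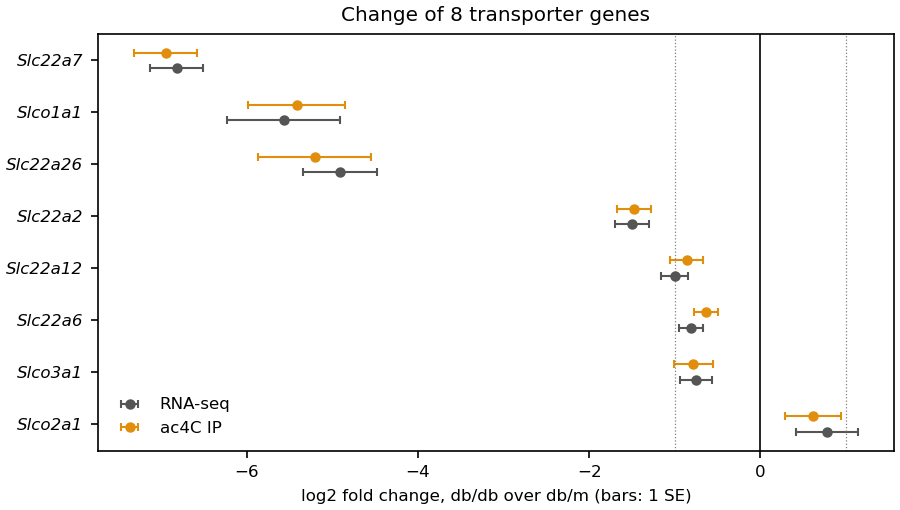
Log2 fold change between db/db and db/m mice of 8 family genes with 100 or more RNA-seq reads, from IP (orange) and RNA-seq reads (grey); bars are 1 SE and dotted lines mark a log2 fold change of 1 in either direction. Slc22a7, Slco1a1 and Slc22a26, which were chosen for their fall, lie at -4.91 or lower, and the next gene, Slc22a2, lies at -1.47 in IP and -1.5 in RNA-seq.

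Slc22a2 is the gene of organic cation transporter 2, which takes up cationic compounds on the blood side of the tubule. Its peak spans 12865 bases on the plus strand (chr17:12615303-12628167) and ends 322 bases before the 3′ end of the gene. In RNA-seq, db/m mice had 227 to 334 CPM (334, 227, 333, 312 and 295), and db/db mice had 93.1, 102, 63.1, 91.2, 103 and 183 CPM. The groups did not overlap, and db/db animal 6 was again the highest db/db mouse. Slc22a2 fell in db/db mice by 1.5 on the log2 scale in RNA-seq (SE 0.20, adjusted p = 4e-05) and by 1.47 in IP (SE 0.20, adjusted p = 8.4e-05) in edgeR's quasi-likelihood test. The call held with animals 5 and 6 alone as the db/db group, at -1.20 in IP (adjusted p = 0.033) and -1.06 in RNA-seq (adjusted p = 0.0225).

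Slc22a12 encodes the urate carrier URAT1 of the brush border. It has peaks in 3 separate regions of the gene on the minus strand. At the 3′ end (chr19:6535845-6537223) its RNA-seq level was 2090, 1440, 1910, 2050 and 1950 CPM in db/m mice and 844, 826, 626, 886, 1310 and 1200 CPM in db/db mice. The groups did not overlap in RNA-seq, where the log2 fold change was -1.0 (SE 0.16, adjusted p = 0.000396), just inside the fold threshold and so not called. In IP, db/m animal 2 (2140 CPM) lay below 2 db/db mice (2230 and 2280 CPM), and the log2 fold change was -0.86 (SE 0.19, adjusted p = 0.00757).

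The middle region of Slc22a12 (chr19:6538468-6540349) was called lower in both library types, at -1.01 in IP (SE 0.16, adjusted p = 0.000474 from edgeR's test) and -1.08 in RNA-seq (SE 0.14). A short region near the 5′ end (chr19:6542750-6542810) was called in RNA-seq at -1.19 (SE 0.13) and had -0.81 in IP (SE 0.21, adjusted p = 0.0254). The 3 regions thus gave values from -0.81 to -1.19. With animals 5 and 6 alone as the db/db group, the value at the 3′ end was -0.45 in IP (adjusted p = 0.402) and -0.59 in RNA-seq (adjusted p = 0.0937).

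Slc22a6 is the gene of organic anion transporter 1, which takes up organic anions from blood in exchange for dicarboxylates. Its peak covers the first 180 bases of the gene on the plus strand (chr19:8617996-8618175) and overlaps the RefSeq gene Gm36394, so the gene of origin of its reads is uncertain. In RNA-seq the level was 570, 653, 572, 597 and 603 CPM in db/m mice and 270, 378, 281, 312, 324 and 482 CPM in db/db mice. The groups did not overlap, also not in IP, and animal 6 was once more the highest db/db mouse. The log2 fold change was -0.81 in RNA-seq (SE 0.14, adjusted p = 0.000464) and -0.63 in IP (SE 0.14, adjusted p = 0.0111), short of the fold threshold. With animals 5 and 6 alone as the db/db group, it was -0.57 (adjusted p = 0.109) and -0.48 (adjusted p = 0.343).

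**Figure D3:**
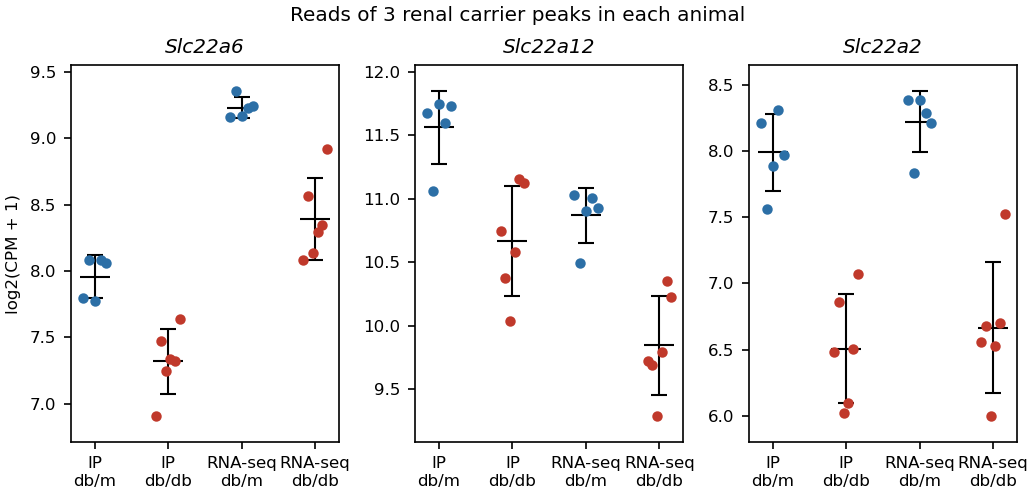
Level of the peaks of Slc22a6, Slc22a12 and Slc22a2 as log2(CPM + 1), in the IP and the RNA-seq library of each db/m (blue) and db/db mouse (red); black bars are the mean ± SD, and the axes do not start at 0. The groups separate in Slc22a6 and Slc22a2 in both library types and in Slc22a12 in RNA-seq, where the log2 fold changes are -0.81 (Slc22a6), -1.5 (Slc22a2) and -1.0 (Slc22a12).

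Slco3a1 encodes a widely expressed polypeptide that carries prostaglandins and thyroid hormone. Its peak lies 30 bases from the 5′ end of the gene on the minus strand (chr7:74554451-74554750). In IP, db/m mice had 114, 318, 136, 154 and 150 CPM and db/db mice 80.0 to 129 (median 96.8). The ranges overlapped, and db/m animal 2 lay well above the other mice. The IP log2 fold change was -0.78 (SE 0.23, adjusted p = 0.0476 from edgeR's test), and -0.45 without db/m animal 2. RNA-seq gave db/db mice 22.4 ± 5.33 CPM (SD, n = 6) and db/m mice 37.8 ± 10.2 (SD, n = 5), which is a log2 fold change of -0.75 (SE 0.19, adjusted p = 0.0139). In IP the adjusted p was no longer under 0.05 without TMM (0.087), in the fit with animal number as a block (0.0525), or without any 1 of db/db animals 1, 2, 4, 5 and 6 and db/m animals 2 to 5 (0.0606 to 0.121). It was 0.34 in IP and 0.236 in RNA-seq when animals 5 and 6 alone stood for db/db mice.

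Slco2a1, the prostaglandin transporter gene, has a peak on the plus strand at chr9:103089254-103089523. Its RNA-seq level came from 4 to 18 reads a library, 1.28 to 2.94 CPM (median 1.89) in db/m and 1.52 to 5.69 (median 3.65) in db/db mice. These ranges overlapped. The log2 fold change was 0.78 in RNA-seq (SE 0.36, adjusted p = 0.187) and 0.62 in IP (SE 0.33, adjusted p = 0.296), and in neither did it pass the threshold. The IP value was 0.15 (adjusted p = 0.942) with animals 5 and 6 alone as the db/db group.

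The last 3 genes were close to the counting limit. Slc22a15, an orphan carrier (chr3:101924119-101924299), had 2 RNA-seq reads in all. The IP libraries of db/db mice held 9, 0, 4, 2, 0 and 24 reads and those of db/m mice 0, 0, 0, 0 and 1, a ratio of 34.1 after library size with a 95% exact interval of 5.77 to 1380 for counting error only. Most of these reads were thus in db/db animal 6, and the IP change had an adjusted p of 0.103 in edgeR's test. Slc22a23, also an orphan carrier (chr13:34344853-34344973), had 19 IP reads in db/db and 44 in db/m mice, of which db/m animals 2 and 5 held 22 and 20. Slc22a27, a neighbour of Slc22a26 in the gene cluster on chromosome 19 (chr19:7864776-7865800), had 7 IP reads in db/db and 20 in db/m mice, of which 17 were in db/m animal 2. The adjusted p of the IP change was 0.621 for Slc22a23 and 0.531 for Slc22a27, and without db/m animal 2 the value of Slc22a27 turned from -1.56 to 0.66.

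The IP level was then set against the RNA-seq level of the same mouse. In db/m mice the log2 ratio of IP to RNA-seq CPM was -0.67 ± 0.18 (SD, n = 5) for Slc22a7, 0.10 ± 0.29 for Slc22a26 and -1.38 ± 0.05 for Slco1a1. Slco3a1 and Slco2a1 had the highest ratios, 2.15 ± 0.33 and 1.73 ± 0.77, and Slc22a12 had 0.69 ± 0.12. The ratio compares peaks within these libraries only, where 0 means equal shares of the reads of both library types. The ratios of the 3 chosen carriers thus lay below those of Slco3a1, Slco2a1 and Slc22a12. They were not apart from those of Slc22a6 (-1.27 ± 0.11) and Slc22a2 (-0.23 ± 0.19), which lay within their range. The peaks of the 3 chosen carriers are listed as called in db/m mice only. The authors' fold enrichment there was 2.41 for Slc22a7, 2.89 for Slc22a26 and 1.29 for Slco1a1. For peaks listed as called in db/m mice it was 2.31 for Slc22a6, 3.68 for Slc22a2, 7.07 for Slc22a12 and 26.1 for Slco3a1.

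Relative to RNA-seq, none of the 9 genes taken by name was called different in IP between genotypes (0.0204% of all genes were, in either direction). At an unadjusted p under 0.05, edgeR had 2 genes higher, Slc22a12 at 0.15 (SE 0.07, adjusted p = 0.664) and Slc22a6 at 0.21 (SE 0.09, adjusted p = 0.635), and limma on paired differences had 1, Slc22a6, which it did not call. For Slc22a2 the relative log2 fold change was 0.08 (95% interval -0.14 to 0.29) and for Slco3a1 0.03 (-0.28 to 0.34). The chosen genes were picked from reads of both library types, so their relative values are a description with no test. For Slc22a7 the value was -0.09, and in the 5 db/db mice with 3 or more reads in both libraries the ratio ranged from -2.01 to -0.10, around the db/m values of -0.87 to -0.44. For Slco1a1 it was 0.38, and 1.21 without db/db animal 6, which rests on 2 to 53 IP reads and 1 to 28 RNA-seq reads a mouse. No db/db mouse had 3 reads of Slc22a26 in both libraries, so no ratio was formed.

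**Figure D4:**
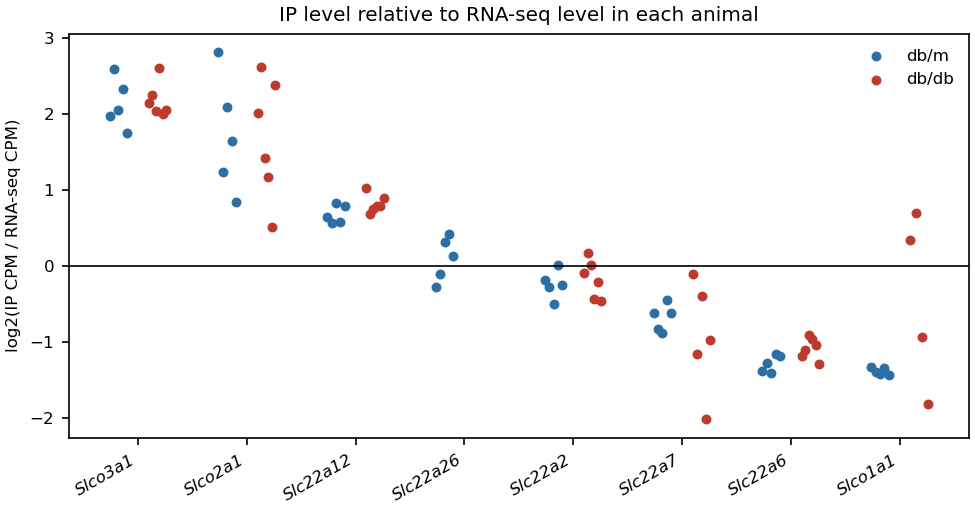
Log2 ratio of IP to RNA-seq CPM in each db/m (blue) and db/db mouse (red) for 8 family genes, for mice with 3 or more reads in both libraries. Most genes keep their place between the genotypes, such as Slco3a1 at 2.15 in db/m and 2.18 in db/db mice; Slc22a26 has no db/db point, and the 4 db/db points of Slco1a1 spread from -1.81 to 0.70.

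Partners of these carriers were read from a fixed list of efflux pumps, dicarboxylate and urate carriers, scaffolds and transcription factors, of which 14 of 35 have a peak. Of these, 1 was called lower in each library type, against 1.81% of all genes in IP and 2.12% in RNA-seq. It was Ggt1 (gamma-glutamyltransferase 1, a brush border enzyme that cleaves glutathione), whose RNA-seq level was 622 ± 167 CPM in the 6 db/db mice (SD) and 1320 ± 159 in the 5 db/m mice, at a log2 fold change of -1.08 (SE 0.16, adjusted p = 0.000166), and -1.07 in IP (SE 0.19, adjusted p = 0.00122). The call was lost in RNA-seq without db/db animal 3, in IP without db/db animal 3, without db/m animal 1 or without TMM, and in both with animals 5 and 6 alone as the db/db group. Pdzk1, a scaffold that binds several of these carriers, had -0.85 in RNA-seq (SE 0.24, adjusted p = 0.0259), and -1.20 without db/db animal 6 (SE 0.13), which passed the fold threshold. The transcription factor gene Hnf4a had -0.04 (SE 0.13), and the dicarboxylate carrier Slc13a3 had -0.39 (SE 0.20). The median over the list was 0.03 in RNA-seq and -0.27 in IP.

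Genes known to be higher in male than in female mouse kidney were lower in db/db mice. Of 13 listed genes 8 have a peak, and 7 were called lower in both library types, against 1.81% of all genes in IP and 2.12% in RNA-seq. In each, 6 were called lower with animals 5 and 6 alone as the db/db group, against 0.815% (IP) and 1.12% (RNA-seq) of all genes in those fits, and Slc7a13 was not. Acsm3, an acyl-CoA synthetase gene, had 26.2 ± 14.4 CPM (SD, n = 6) in db/db and 438 ± 51.9 (SD, n = 5) in db/m RNA-seq libraries, a log2 fold change of -4.06 (SE 0.32, adjusted p = 1.52e-07). Its peak overlaps one of Eri2 on the other strand, so the reads of the pair cannot be told apart. Odc1 (ornithine decarboxylase, the first enzyme of polyamine synthesis) had 27.8 ± 13.3 and 203 ± 62.5 CPM, a log2 fold change of -2.86 (SE 0.26, adjusted p = 6.41e-07). Slc7a13, an amino acid carrier of the last proximal tubule segment, had -3.61 (SE 0.63), Cyp2j13 (a cytochrome P450) -3.17 (SE 0.42) and Hsd17b11 (a steroid dehydrogenase) -1.81 (SE 0.12). Ugt2b37 and Ugt2b38, at -3.57 and -3.43, are close paralogs that conjugate glucuronic acid, and the split of reads between them is uncertain.

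The list was made with earlier results of these data known and does not stand as independent evidence of a direction. Its summed RNA-seq level was 2180, 2730, 2260, 2410 and 2830 CPM in db/m mice and 256, 380, 231, 288, 230 and 608 CPM in db/db mice, and its most abundant gene in db/m mice was Hsd17b11. Animal 6, the highest db/db mouse of Slc22a7, Slco1a1, Slc22a2 and Slc22a6, was also the highest here. Of 4 listed genes that are higher in female kidney, 1 has a peak. It is Cyp2a4, which has a close paralog, and it was lower too, at -1.09 in RNA-seq (SE 0.28, adjusted p = 0.0135) and -1.55 in IP (SE 0.25, adjusted p = 0.000707).

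**Figure D5:**
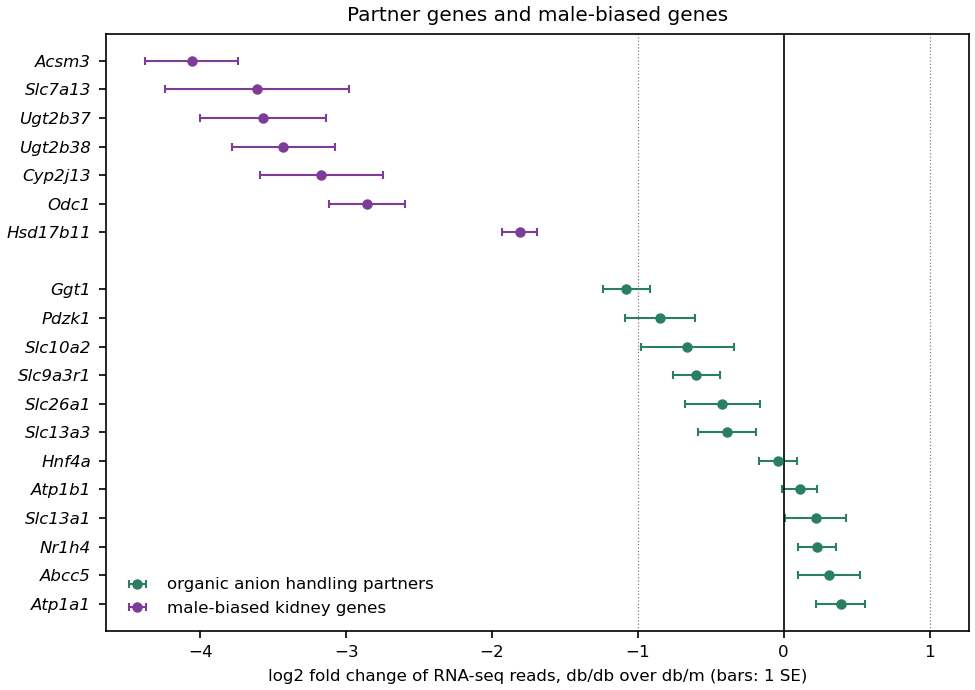
Log2 fold change of RNA-seq reads between db/db and db/m mice for 12 partners of the carriers (green) and for 7 male-biased kidney genes (purple); bars are 1 SE, dotted lines mark a log2 fold change of 1 in either direction. The male-biased genes lie from -4.06 (Acsm3) to -1.81 (Hsd17b11), and Ggt1 at -1.08 is the one partner past the threshold.

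Markers of the proximal tubule, where most of these carriers sit, were measured in 12 of 17 genes. In RNA-seq, 2 were called lower, Slc7a13 and the phosphate carrier Slc34a1 (-1.05, SE 0.27, adjusted p = 0.0141), and 1 higher, the gluconeogenic enzyme Pck1 (1.85, SE 0.28, adjusted p = 0.000154), where 2.12% of all genes were called lower and 2.14% higher. The RNA-seq call of Slc34a1 was lost without TMM, when db/m animal 1 was left out, and when any of animals 2, 3 and 5 of the db/db group was. With animals 5 and 6 alone as the db/db group, neither Slc34a1 nor Slc7a13 was called in RNA-seq. In IP the calls were Slc7a13 and Pck1. Of the markers not called in RNA-seq, the endocytic receptor Lrp2 had -0.90 (SE 0.19, adjusted p = 0.0033) and the glucose carrier Slc5a2 -0.16 (SE 0.20). Slc4a4 went the other way, at 0.53 (SE 0.11, adjusted p = 0.00416 in edgeR's test). In RNA-seq 10 of the 12 markers had a negative log2 fold change. The median over the markers was -0.44 in RNA-seq and -0.40 in IP. Their summed RNA-seq level was 9940 to 16000 CPM in db/db and 12000 to 13600 in db/m mice, with Pck1 the most abundant marker in db/db mice at 5850 ± 2640 CPM (SD, n = 6).

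Here too 1 mouse decided part of the count. Without db/db animal 6, 5 of the 12 proximal tubule markers were called lower in RNA-seq, against 2.75% of all genes in the same fit, with Lrp2 (-1.08), Gatm (-1.72) and Ass1 (-1.28) added, and Slc7a13 stood at -5.32. No marker was called lower with animals 5 and 6 alone as the db/db group. Among markers of other nephron cells, 1 of the 3 collecting duct genes with a peak was called higher in RNA-seq, against 2.14% of all genes. It was the water channel Aqp2 (1.38, SE 0.19, adjusted p = 7.82e-05), while Aqp3 had 0.47 (SE 0.16, adjusted p = 0.0611) and Atp6v1g3, a proton pump subunit, 0.01 (SE 0.13). Slc12a1 of the loop of Henle had 0.06 (SE 0.22) and Calb1 of the distal tubule 0.05 (SE 0.21). In endothelium Plvap had 0.97 (SE 0.15, adjusted p = 0.000183) and Kdr -0.40 (SE 0.16), and in podocytes Nphs1 had 0.42 (SE 0.18). The part of cell composition in the carriers' values was not tested.

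Genes around the carriers were read within 250 kb on either side. Slc22a7 has 12 neighbours with a peak, of which 1, Cul9 (a ubiquitin ligase gene 62.1 kb away), was called lower in RNA-seq at -1.04 (SE 0.23, adjusted p = 0.00438), where 2.12% of all genes were. The 2 nearest, Crip3 and Ttbk1, had 6 and 3 RNA-seq reads in all, and Zfp318, 11.3 kb away, had 14.3 ± 4.21 CPM (SD, n = 6) in db/db and 13.8 ± 4.33 (SD, n = 5) in db/m mice. Around Slc22a12, 1 of 5 neighbours was called lower, Nrxn2, which ends 2.64 kb away, at -1.21 (SE 0.13, adjusted p = 5.69e-06), against the same 2.12%. Slc22a6 has 6 neighbours with a peak, at RNA-seq log2 fold changes from -0.34 to 0.38. Slc22a2 has 2, among them Igf2r (a growth factor receptor gene 53.9 kb away) at 0.06 (SE 0.14), and Slc22a26 has 1, Slc22a27, with 10 RNA-seq reads in all. None of the neighbours of these 3 genes was called in edgeR's test, and Slco1a1 has no neighbour with a peak.

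The genes outside both families with RNA-seq patterns most like the chosen carriers were ranked by Pearson's r of log2(CPM + 1) over the 11 mice, among 6323 peaks with a mean of 20 or more RNA-seq reads. All points share the 2 genotypes, so a high r mainly reflects a difference between db/db and db/m mice, and it is given as a description. For Slc22a7 the closest were Tmem174 (r = 0.986), a membrane protein gene of the proximal tubule, and then Psmd2, Mpv17l, Ldhd and Me1 (r = 0.974 to 0.972). For Slc22a26 they were Ldhd (D-lactate dehydrogenase, r = 0.986), Me1 (malic enzyme, r = 0.980), Smarca2, Hsd17b11 and Psmd2. For Slco1a1 they were Acy3 (aminoacylase 3, r = 0.998), Hspd1, Cndp2, Ugt2b38 and Smarca2 (r = 0.983 to 0.977). Acy3 had 60.5 CPM on average in db/db and 374 CPM in db/m mice, with db/db animal 6 at 141 and the other db/db mice at 57.4 or less.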

How the data were processed

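The analysis used 1 table of ac4C peaks from kidneys of 6 db/db and 5 db/m mice, with groups and animal numbers from the sample titles. Per the paper's methods, mRNA was selected on oligo d(T) beads, fragmented and pulled down with an ac4C antibody, while the labels speak of total RNA. The counts deposited by the authors are whole numbers of reads, not normalized, for each peak in each library. The authors' fold enrichment is a linear ratio and their peak FDR an adjusted p-value, used only to describe peaks. Their log2 change, p-value and FDR between genotypes were not used. The submitters' processing notes name GRCm38, and the aligner, peak caller and counter are not given in the sources used here. Adding 1 to the start of a peak matched a RefSeq gene start in 103 peaks and the start as given in 8, so positions are printed from 1. Where 2 peaks on opposite strands overlapped by 90% or more, 46 of 52 pairs had read totals within 10%, so counting did not separate strands.

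Counts were tested with edgeR 4.0.16 (R 4.3.3, glmQLFit and glmQLFTest, TMM) over all 9857 peaks, in IP, in RNA-seq, and in IP relative to RNA-seq where genotype interacts with library type and each mouse has its own term. In this order the biological coefficients of variation were 0.356, 0.196 and 0.117. SE is the absolute log2 fold change over the square root of F, and 95% intervals are 1.96 SE on either side. In the relative fit Slco1a1 had an SE of 0.18, while its ratio had an SD of 1.16 over the 4 db/db mice with a ratio. The SE of a peak whose mice differ widely can thus be too small there. Other tools were DESeq2 1.42.0, limma 3.58.1 and Python 3.11.15. Alternatives were no TMM, peaks with a mean of 10 or more reads, each mouse left out, reads summed per gene, the animal number as a block, DESeq2, limma on paired differences, and animals 5 and 6 alone as the db/db group, the last added after seeing the data. The carriers and gene lists were chosen with earlier results of these data known. Each family gene is named with its peak of most RNA-seq reads, list members with a peak are counted and those called are named, other list members named were chosen after their values were seen, and the 5 most alike genes are named per chosen carrier. No label says that the mice came from separate litters or cages. PCR copies were not separated. Values of some single genes are not reported here, and counts over the families and lists include them.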

Additional observations from a re-analysis of the deposited data

Results flagged for a closer look

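In 48 groups of 5 or 6 mice (12 genes, 2 library types, 2 genotypes), the highest or lowest mouse was tested for a gap to the others by Dixon's 95% limit. This marked 13 values, where chance gives about 2.4, and 7 of them rest on under 20 reads.

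Among db/db mice, animal 6 stood above the others in Slco1a1, at 16 CPM in IP (155 reads) and 56.1 CPM in RNA-seq (185 reads), in Slc22a26 at 0.926 CPM in IP (9 reads) and in Slc22a2 at 183 CPM in RNA-seq. Among db/m mice, animal 2 stood below the others in Slc22a12, at 2140 CPM in IP and 1440 CPM in RNA-seq, and above them in Slco3a1 at 318 CPM in IP and in Slc22a27 at 1.80 CPM in IP (17 reads).

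The other values marked were those of db/db animal 3 in Slc22a26 (RNA-seq, 0.857 CPM, 3 reads), of db/db animal 1 in Slc22a27 (IP, 0.483 CPM, 4 reads) and of single reads of Slc22a15 in db/m animal 5 (IP, 0.111 CPM), db/db animal 1 (RNA-seq, 0.301 CPM) and db/m animal 2 (RNA-seq, 0.315 CPM).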

How the results depend on the processing

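Of the 9 family genes taken by name, Slc22a2 was called lower in IP and in RNA-seq under each alternative run, and in RNA-seq Slc22a12 joined without db/db animal 5, db/db animal 6 or db/m animal 2, with reads summed per gene and in the block. With the 3 genes chosen for their fall, whose calls that choice fixes, leaving out 1 mouse gave 4 to 4 genes called lower in IP, 4 to 5 in RNA-seq and 0 to 0 relative to RNA-seq, and 0 to 0 called higher in IP and in RNA-seq. Relative to RNA-seq it gave 0 to 1 called higher, Slco1a1 without db/db animal 6, a gene chosen from the same reads, so that nothing is read from it. Over all peaks, 327 were called in IP (276 to 411 with 1 mouse left out), 389 in RNA-seq (332 to 480) and 2 in the relative fit (1 to 5). Summing reads per gene gave 165 and 216, with fewer features tested. Animals 5 and 6 alone as the db/db group gave 167 in IP and 250 in RNA-seq, with fewer mice. The relative fit gave 0 with peaks of a mean of 10 or more reads and 0 with limma on paired differences, and the cause was not tested.

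The animal numbers of db/db and db/m mice share only a number: deviations of same-numbered mice correlated from -0.246 to 0.209 in IP and from -0.398 to 0.515 in RNA-seq. With the number as a block, in which db/db animal 6 has no partner, 446 peaks were called in IP and 459 in RNA-seq, and 4 and 5 family genes were lower. In the block Slc22a12 had -0.98 in IP and -1.10 in RNA-seq, and 2 and 3 partners and 5 and 5 proximal tubule markers were called lower. The share of all genes called lower in the block was not computed, so nothing is read from these family and list counts.

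Depth limits Slc22a15, Slc22a23 and Slc22a27, with 2 to 10 RNA-seq reads, and the db/db values of Slc22a26.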
